A study of Mus musculus with 5 samples.

Results

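Muc6, Stard10, Trim2, Mocs1 and Sh3tc2 were 5 of the genes with the largest decreases in erythroid cells of mouse fetal liver in which Csnk2b, the gene of the regulatory subunit of the protein kinase CK2, was targeted, outside the neighbourhood of that gene. They were chosen by name, with their decrease in the KO cells already known, from 39179 genes listed in the count table, of which 13000 were counted well enough to be tested. All 5 were matched by Ensembl identifier and all 5 were among the genes tested. Because the contrast between KO and control chose them, their fold changes are given as a description, with no test.

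The KO group held 2 libraries from embryos with the genotype Csnk2b fl/fl and Vav+/Cre, and the control group 3 libraries from embryos with the genotype Csnk2b+/+ and Vav+/Cre, all of strain C57BL/6 at 14.5 days post conception. Both groups thus carried the Cre recombinase, which the Vav1 promoter drives throughout the blood lineage. The cells were sorted for TER119, a surface antigen of maturing red cells, and their polyadenylated RNA was sequenced. Whether a library is 1 embryo or a pool is not stated in the labels, so the tests measure the spread between these samples.

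CK2 is a serine and threonine kinase made of catalytic alpha subunits and a regulatory beta dimer, the product of Csnk2b. None of the 5 genes belongs to the textbook set of red cell genes. Muc6 is known as a secreted mucin of stomach glands, Stard10 as a lipid transfer protein abundant in adult liver, Trim2 as a ubiquitin ligase of neurons, Mocs1 as an enzyme of molybdenum cofactor synthesis, and Sh3tc2 as an endosomal protein of Schwann cells. Stard10 protein is a known substrate of CK2, and phosphorylation lowers its lipid transfer activity.

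Total counts ranged from 13187094 to 15366021 per library. Csnk2b, the check of the labels, stood at 112 and 95.6 in normalised read counts, written CPM throughout, in KO replicates 1 and 2, against 186, 186 and 169 CPM in control replicates 1, 2 and 3. That was 57.4% of the control level (log2 fold change -0.80 ± 0.09, edgeR adjusted p = 0.0018), and reads of exons outside the floxed ones, which are not stated, may be among these. Control replicate 3 held 454 counts of the Y-linked gene Eif2s3y together with 7882 counts of Xist, the transcript of the silenced X chromosome, while no other library held a count of Eif2s3y. Values without that library are given beside the results. In these bulk samples, fewer cells that hold a transcript and less of it per cell cannot be told apart.

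Muc6 encodes a gel-forming mucin that coats the gland cells of the stomach. It stood at 33.4 and 27.0 CPM in KO replicates 1 and 2, against 52.6, 53.2 and 58.0 CPM in control replicates 1, 2 and 3. The highest KO library lay below the lowest control by 1.57 times. The KO mean was 30.2 CPM ± 4.58 (SD, n = 2) and the control mean 54.6 CPM ± 3.00 (SD, n = 3), a log2 fold change of -0.86 ± 0.11 (SE), so that 55.2% of the control level was left. Of the 5 genes Muc6 had the widest gap between the KO libraries, KO replicate 2 having 0.806 of the level of KO replicate 1. Leaving out KO replicate 1 gave a log2 fold change of -1.04, and leaving out KO replicate 2 one of -0.71. Muc6 (ENSMUSG00000048191) is a minus-strand gene of chromosome 7, spanning 141633456 to 141655319 of mm10, and has 9361 bases of exon in 33 blocks. No annotated gene overlaps it. Ap2a2, for a subunit of the AP-2 clathrin adaptor, ends 445 bp from it on the opposite strand and stood at 398 CPM in KO and 471 CPM in control means (edgeR adjusted p = 0.088). With a log2 fold change of -0.25, Ap2a2 was lower in both KO libraries than in all controls, and it passed with DESeq2 (-0.25) and without KO replicate 1 (-0.29). Tollip, for an adaptor of Toll-like receptor signalling, lies 219494 bp away on the other side and averaged 80.0 CPM in KO and 80.0 CPM in control.

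Stard10 encodes a START-domain protein that carries phosphatidylcholine and phosphatidylethanolamine between membranes. It stood at 19.1 and 17.6 CPM in KO replicates 1 and 2, against 31.4, 33.8 and 31.1 CPM in control replicates 1, 2 and 3. This was the widest separation among the 5, the lowest control lying 1.63 times above the highest KO library. The means were 18.4 CPM ± 1.07 (SD, n = 2) in KO and 32.1 CPM ± 1.45 (SD, n = 3) in control, and the log2 fold change was -0.81 ± 0.09 (SE). Stard10 (ENSMUSG00000030688) is a plus-strand gene of chromosome 7, spanning 101317086 to 101346626, with 2419 bases of exon in 8 blocks. The antisense gene Gm20476 overlaps it by 8508 bp and had 0 counts in every library. The labels do not say whether strand was used in counting. Its neighbours Atg16l2 and Arap1 stood at 1.73 and 24.9 CPM in the KO means and at 1.57 and 23.4 CPM in the control means, with log2 fold changes of 0.17 and 0.09 that did not pass the test (edgeR adjusted p = 0.73 and 0.61).

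Trim2 encodes a ubiquitin ligase with a tripartite motif and NHL repeats, known in mouse neurons for acting on the neurofilament light chain. It was the least counted of the 5, with 159 and 165 counts in KO replicates 1 and 2 and 315, 274 and 257 in control replicates 1, 2 and 3. In CPM these were 12.2 and 10.7 in the KO libraries, against 20.3, 20.9 and 17.8 in the controls. The groups did not overlap, and control replicate 3 was the lowest control. The means were 11.5 CPM ± 1.08 (SD, n = 2) in KO and 19.7 CPM ± 1.62 (SD, n = 3) in control, a log2 fold change of -0.78 ± 0.12 (SE) and the largest standard error of the 5. Trim2 (ENSMUSG00000027993) is a minus-strand gene of chromosome 3, spanning 84160439 to 84306877. It has 19 annotated transcripts and 19751 bases of exon, and the counts do not tell its transcripts apart. Its tested neighbours did not pass: Mnd1, a meiotic recombination gene, changed by 0.19 on the log2 scale with an edgeR adjusted p of 0.67, and Fhdc1, for a formin-like protein, by -0.16 with one of 0.33. The gene Gm6525, which overlaps Trim2, was not analysed here.

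Mocs1 encodes the proteins that turn GTP into the first, cyclic intermediate of the molybdenum cofactor. It was the most abundant of the 5, at 81.4 and 70.6 CPM in KO replicates 1 and 2, against 118, 136 and 136 CPM in control replicates 1, 2 and 3. The groups did not overlap, and control replicate 1 lay below the other controls. The means were 76.0 CPM ± 7.61 (SD, n = 2) in KO and 130 CPM ± 10.7 (SD, n = 3) in control, a log2 fold change of -0.78 ± 0.10 (SE). Mocs1 (ENSMUSG00000064120) is a plus-strand gene of chromosome 17, spanning 49428362 to 49455435, which is 14.3 Mb from Csnk2b on the same chromosome. Gm20540, a noncoding gene on the opposite strand, overlaps its start and had 2 counts in control replicate 1 and 0 in the other libraries. The genes nearest to it among those tested moved in opposite directions. Unc5cl, at a distance of 888648 bp, fell to 18.2 CPM in KO against 28.4 CPM in control means (log2 fold change -0.65 ± 0.10, edgeR adjusted p = 0.0085). Rftn1, which encodes a lipid raft protein and lies 536822 bp away, rose to 22.4 CPM in KO against 11.5 CPM in control means (log2 fold change 0.97 ± 0.15, edgeR adjusted p = 0.0077). Unc5cl did not pass without control replicate 1 or 2 (highest adjusted p 0.0582), nor Rftn1 without control replicate 2 (0.0533) or with no filter on low counts (0.0660).

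Sh3tc2 encodes a protein with SH3 domains and tetratricopeptide repeats that binds Rab11 on recycling endosomes, and its loss causes a demyelinating Charcot-Marie-Tooth neuropathy in humans. It stood at 43.5 and 37.3 CPM in KO replicates 1 and 2, against 64.2, 70.1 and 69.5 CPM in control replicates 1, 2 and 3. The highest KO library was well under the lowest control, which exceeded it 1.48 times. The means were 40.4 CPM ± 4.41 (SD, n = 2) in KO and 67.9 CPM ± 3.25 (SD, n = 3) in control, a log2 fold change of -0.75 ± 0.09 (SE), the smallest decrease of the 5. Sh3tc2 (ENSMUSG00000045629) is a plus-strand gene of chromosome 18, spanning 61953075 to 62024402, and no annotated gene overlaps it. Afap1l1, a tested neighbour that encodes an actin-associated protein, had a log2 fold change of 0.15 and did not pass (edgeR adjusted p = 0.60).

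**Figure D1:**
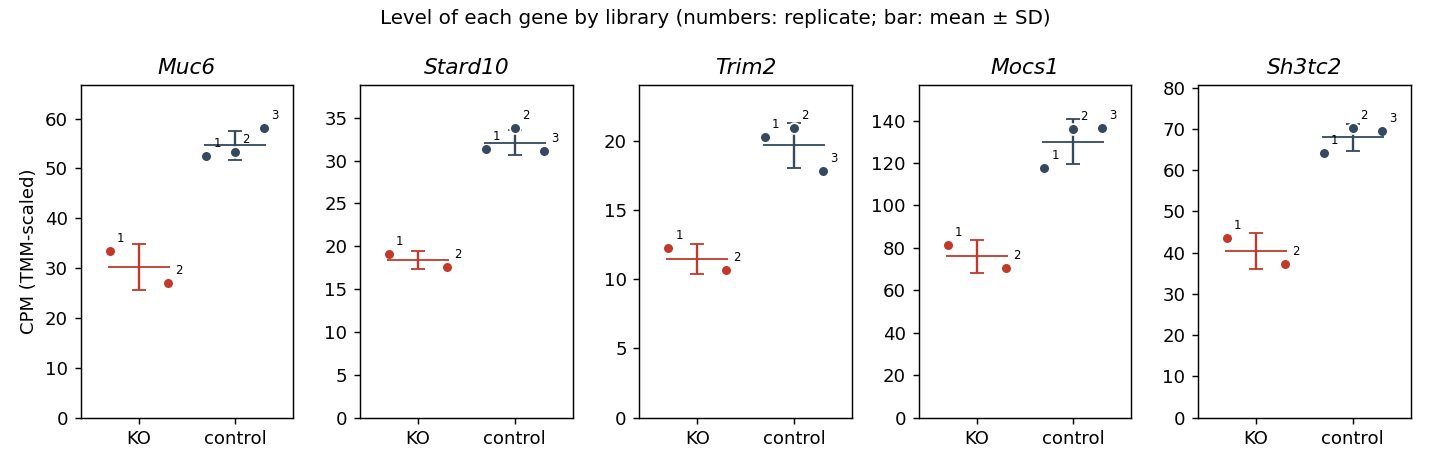
CPM of each of the 5 genes in each library, KO in red and control in blue-grey, on axes that start at 0; points are libraries with their replicate number, bars the group mean with SD. In each panel both KO libraries lie below all 3 controls, and KO replicate 2 lies below KO replicate 1.

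The 5 decreases ran from 1.68-fold for Sh3tc2 to 1.81-fold for Muc6, a narrow range that follows from their choice as large decreases. Csnk2b itself fell 1.74-fold, within the range so chosen. All 5 genes had both KO libraries below all controls, which was also true of 19.3% of the genes tested and follows from how the genes were chosen. At an edgeR adjusted p below 0.05, 238 genes or 1.83% of those tested were lower in KO, 5.15% were higher and 6.98% differed in either direction. KO replicate 2 was lower than KO replicate 1 for all 5 genes and for Csnk2b, as it was for 220 of the 238 genes lower in KO (92.4%) and for 49.4% of the genes tested. Without control replicate 3, the log2 fold changes were -0.81 for Muc6, -0.83 for Stard10, -0.85 for Trim2, -0.74 for Mocs1 and -0.74 for Sh3tc2. That fit called 61 genes lower and 339 higher in KO.

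The 5 were not the largest decreases by every measure. Among the 213 genes lower in KO with a mean of at least 10 CPM in a group, Muc6 was second, Stard10 the fourth, Trim2 the eighth, Mocs1 the tenth and Sh3tc2 the eleventh by log2 fold change. Gpank1, which overlaps Csnk2b, came before Muc6 with -0.88. Between the members stood Tns1, for the adhesion protein tensin, with -0.84, A430033K04Rik with -0.79, the fatty acid receptor gene Cd36 with -0.79 and the macrophage gene Cd5l with -0.78, as well as Csnk2b with -0.80. Just outside, after Sh3tc2, came Ldlrad4 with -0.75, the tetraspanin gene Cd82 with -0.75, the antisense gene Gm14198 with -0.74, Redrum, an erythroid long noncoding RNA, with -0.73 and the gene ENSMUSG00000096252, which has no symbol in the annotation, with -0.73. With no minimum of CPM, 11 genes came before Muc6, led by Ptprn2 at 0.986 CPM in KO and 2.05 CPM in control means, and Sh3tc2 held place 29, with Ldlrad4, Cd82, Gm14198, Dnajb3 and Redrum next.

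**Figure D2:**
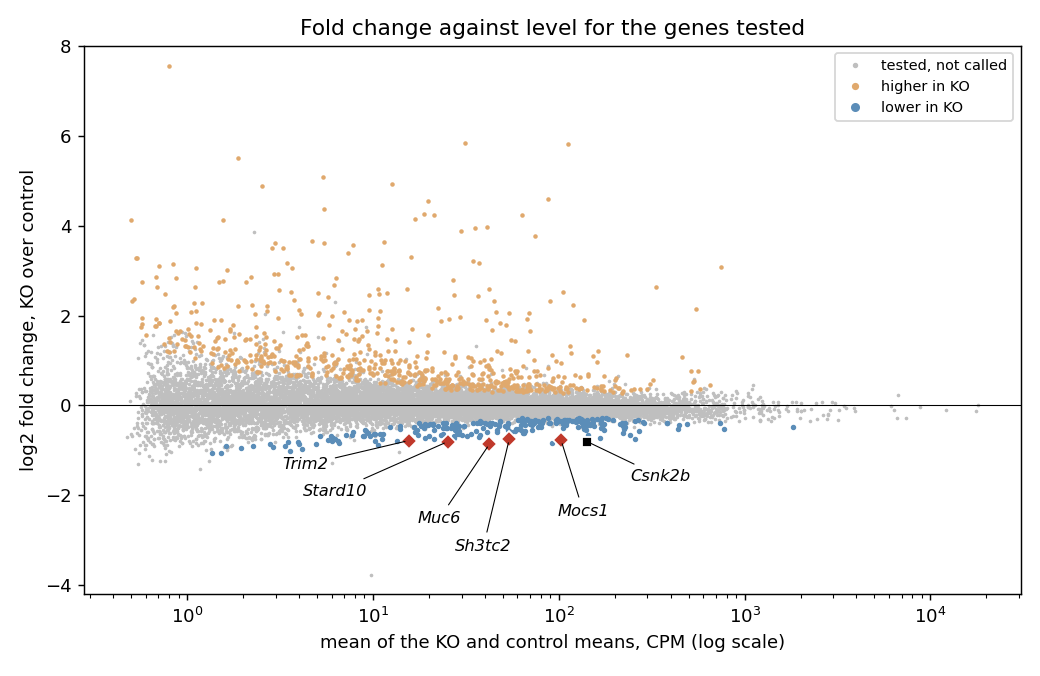
Log2 fold change, KO over control, against the mean of both group means in CPM on a log scale for the 13000 genes tested; orange and blue points are genes called higher and lower in KO, red diamonds the 5 genes and the black square Csnk2b. The 5 genes lie between -0.75 and -0.86, near the lower edge of the genes of their level.

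Levels between genes were compared per kilobase of exon. In KO cells Mocs1 stood highest, at 24.4 ± 2.45 CPM per kilobase, followed by Stard10 at 7.60 ± 0.442, Sh3tc2 at 6.97 ± 0.762, Muc6 at 3.23 ± 0.489 and Trim2 at 0.580 ± 0.0547 (SD, n = 2 each). KO libraries of Stard10, from 7.29 to 7.91, and of Sh3tc2, from 6.43 to 7.51, overlapped, while the other neighbours in this order did not. The order of the means was the same in control cells, at 41.8 ± 3.44 for Mocs1, 13.3 ± 0.599 for Stard10, 11.7 ± 0.560 for Sh3tc2, 5.83 ± 0.320 for Muc6 and 0.995 ± 0.0820 for Trim2 (SD, n = 3 each). There no neighbours overlapped, Stard10 ranging from 12.9 to 14.0 and Sh3tc2 from 11.1 to 12.1. The length is that of all annotated exons together, so a gene read from short transcripts, as is possible for Trim2, has a higher level per kilobase than given here.

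Beside genes of the red cell programme the 5 were modest in level. Gata1, the main erythroid transcription factor, stood at 193 ± 1.58 CPM per kilobase in KO and 199 ± 14.0 in control (SD, n = 2 and n = 3, here and in the next 3 means). Klf1, an activator of the globin genes, stood at 306 ± 3.92 in KO and 353 ± 36.3 in control. Alas2, the first enzyme of erythroid heme synthesis, reached 1013 ± 117 in KO and 1176 ± 69.1 in control, and Slc4a1, the band 3 anion exchanger, 3439 ± 303 in KO and 3735 ± 293 in control. Among the genes tested, the level per kilobase in KO put Mocs1 at percentile 82.4, Stard10 at 56.9, Sh3tc2 at 54.9, Muc6 at 38.0 and Trim2 at 12.7. In control cells the percentiles of the same genes were 90.3, 70.5, 67.6, 51.6 and 20.5.

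**Figure D3:**
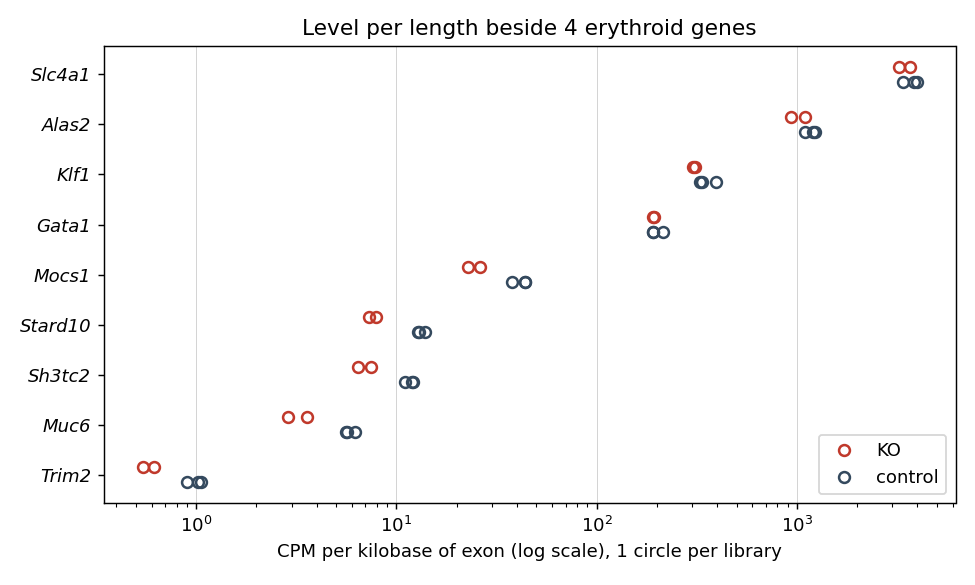
CPM per kilobase of exon on a log scale, 1 circle per library, KO in red above control in blue-grey, for the 5 genes and for Gata1, Klf1, Alas2 and Slc4a1. The 5 genes lie below Gata1 in every library, and KO and control circles separate for each of the 5.

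Promoters are shown for the 3 genes with a single start in RefSeq, since GATA1 is the main activator of erythroid genes and its short motifs can be read in them. Each covers 250 bases before to 50 after the RefSeq start on GRCm38.p6, the assembly of mm10, 5′ to 3′ on the gene's strand. Capitals mark the GATA letters AGATAA or TGATAA on either strand.
Muc6, chr7:141655344-141655643, minus strand: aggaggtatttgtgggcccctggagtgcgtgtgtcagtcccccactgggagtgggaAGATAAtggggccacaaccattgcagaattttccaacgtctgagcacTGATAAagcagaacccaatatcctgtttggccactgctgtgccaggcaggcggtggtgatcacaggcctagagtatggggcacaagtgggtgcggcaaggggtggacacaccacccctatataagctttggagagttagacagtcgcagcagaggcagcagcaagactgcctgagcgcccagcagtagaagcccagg
Stard10, chr7:101316836-101317135, plus strand: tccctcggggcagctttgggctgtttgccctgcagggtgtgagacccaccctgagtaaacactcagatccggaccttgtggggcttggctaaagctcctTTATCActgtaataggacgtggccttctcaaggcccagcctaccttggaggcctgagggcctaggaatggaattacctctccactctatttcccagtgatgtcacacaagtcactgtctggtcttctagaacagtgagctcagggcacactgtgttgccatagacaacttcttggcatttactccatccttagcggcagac
Mocs1, chr17:49428114-49428413, plus strand: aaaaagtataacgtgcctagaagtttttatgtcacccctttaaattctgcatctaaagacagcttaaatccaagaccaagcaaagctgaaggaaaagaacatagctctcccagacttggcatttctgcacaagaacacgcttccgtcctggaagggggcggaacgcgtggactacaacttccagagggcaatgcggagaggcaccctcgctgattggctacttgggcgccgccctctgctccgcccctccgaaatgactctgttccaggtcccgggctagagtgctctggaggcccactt
The Muc6 window held AGATAA beginning 194 bases and TGATAA beginning 147 bases before the start. The Stard10 window held TTATCA, which reads TGATAA on the opposite strand, beginning 151 bases before the start. The Mocs1 window held no GATA letters. Of all 32851 promoter windows, 18.6% held AGATAA or TGATAA and 3.26% held at least 2 such matches. Of the 11552 windows of genes tested, 6.48% held AGATAA and 4.40% TGATAA, against 11.2% and 9.05% of all windows.

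Trim2 has 5 RefSeq starts, and TGATAA occurred in the window of 1 of them, in which it was found 210 and, on the opposite strand, 158 bases before the start. The CACCC-type letters CCNCNCCC, of the kind that KLF1 binds, were found 2 times in the Muc6 window and 1 time in that of Mocs1, in 2 of the 5 Trim2 windows and not in that of Stard10. They stood in 67.8% of the windows of genes tested and 49.5% of all windows. The E-box letters CAGNTG, of the kind that TAL1 binds with its partners, stood in 4 of the 5 Trim2 windows and in none of the other 3, against 43.3% of the windows of genes tested and 51.4% of all windows. The letters CCGGAAG, of the kind that ETS factors bind, stood in none of these 8, against 18.2% of the windows of genes tested and 8.86% of all windows. Both strands were searched for each motif, and none of the matches in these windows overlapped another. A match is only a run of letters, and these counts hold no reads that show which start was used.

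The genes nearest to each member in pattern were found by the Euclidean distance between profiles of log2 CPM, each centred on its own mean over the 5 libraries. A prior count of 2 was added before the log, which flattens the profiles of genes with few counts, such as Spic. For Muc6 these were Cd36, A430033K04Rik and Gpank1, at distances of 0.12, 0.12 and 0.16 on the log2 scale. For Stard10 they were the macrophage genes Spic and Marco and the tetraspanin gene Cd82, at 0.066, 0.081 and 0.096. Marco stood at 4.92 and 4.60 CPM in KO replicates 1 and 2, against 7.72, 8.92 and 8.04 CPM in control replicates 1, 2 and 3, and Spic was under 2 CPM in each library. For Trim2 they were Csnk2b itself, the organic anion transporter gene Abcc3 and Spic, at 0.077, 0.089 and 0.094. For Mocs1 they were the noncoding RNA 2610027K06Rik, Sh3tc2 and Tns1, at 0.054, 0.079 and 0.11. For Sh3tc2 they were Cd82, Ldlrad4 and Tcf7l2, which encodes a transcription factor of the Wnt pathway, at 0.064, 0.064 and 0.074. Among the 5 themselves, Mocs1 and Sh3tc2 were the closest pair, and Muc6 and Trim2 the farthest apart, at 0.31. Profiles over 5 libraries are dominated by the difference between the groups, which the choice of genes fixed.

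**Figure D4:**
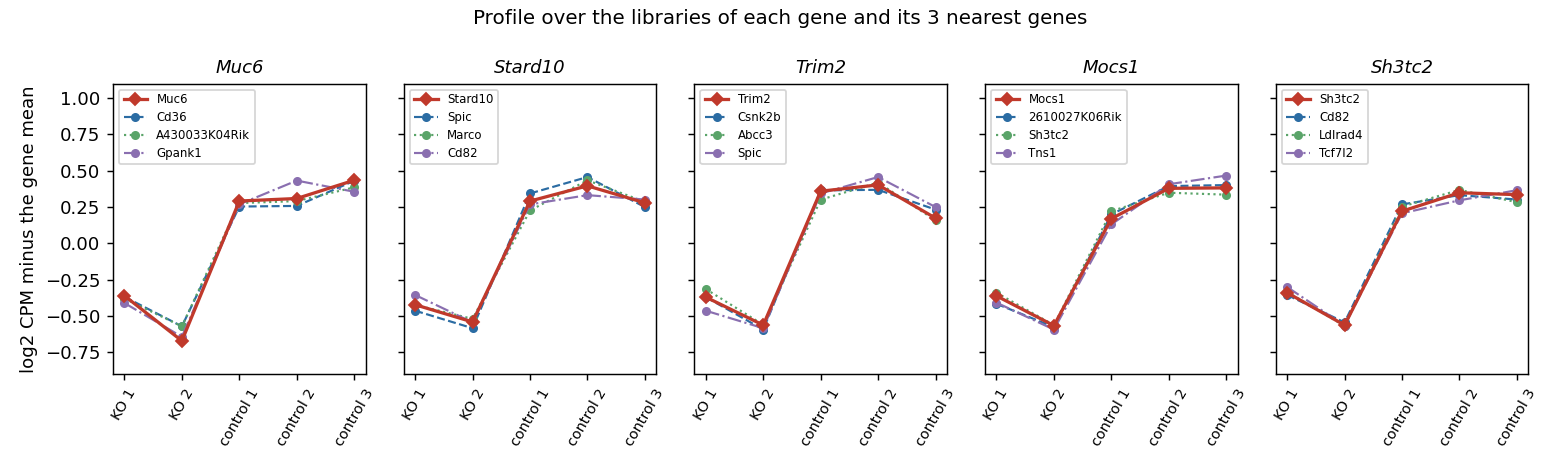
Log2 CPM minus the gene's own mean in each library, KO libraries at left. Red diamonds are each of the 5 genes, drawn with the 3 genes nearest to it. Lines only link the points of a gene, and the values drawn hold no prior count, unlike the distances. KO replicate 2 is the lowest library for each gene drawn, and the controls of Trim2 and Mocs1 differ in opposite ways, replicate 3 being low for Trim2 and replicate 1 for Mocs1.

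The families of the 5 genes were then compared in the same fit, leaving the 5 out. Over 14 lists of related and marker genes, 262 genes were tested, of which 10 were lower and 17 higher in KO. Among the genes tested, 1.83% were lower and 5.15% higher, and the median log2 fold change was 0.01. Of these listed genes, Gfap among the lower and Trim12c, Trim34a and Tubb3 among the higher passed in each of the 5 fits that left out a library. With no filter on low counts, the calls given below for Podxl, Pitpnc1, Stard3nl, Trim21, Steap3, Kif1b, Gnb4, Ighmbp2, Cd5l, Xpo7, Col1a1, Col1a2 and Reln were lost.

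Of the mucins and mucin-like proteins other than Muc6, none fell and Podxl rose. Of 22 named, 5 were tested, with a median log2 fold change of 0.09. Podxl, a sialomucin of blood vessels and blood-forming cells, rose to 231 CPM ± 41.7 (SD, n = 2) in KO against 170 CPM ± 6.30 (SD, n = 3) in control (log2 fold change 0.44 ± 0.10, edgeR adjusted p = 0.038). Podxl did not pass when any 1 control or KO replicate 2 was left out, with an adjusted p as high as 0.145, nor with limma-voom. No mucin was called lower in edgeR, DESeq2 or limma-voom, nor at an unadjusted p below 0.05 in edgeR. Muc5ac and the trefoil factor gene Tff2, which mark the stomach lining and its glands, had no count in any library.

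Among START-domain and other lipid transfer genes, 1 of 20 tested fell and 1 rose, with a median log2 fold change of 0.01. Pitpnc1, for a phosphatidylinositol transfer protein, fell to 42.5 CPM ± 2.03 (SD, n = 2) in KO against 54.6 CPM ± 1.57 (SD, n = 3) in control (log2 fold change -0.36 ± 0.08, edgeR adjusted p = 0.025). Stard3nl, for a protein of contacts between endosomes and the endoplasmic reticulum, rose to 22.3 CPM ± 4.08 in KO against 13.4 CPM ± 0.549 in control (log2 fold change 0.74 ± 0.13, edgeR adjusted p = 0.012). Pitpnc1 did not pass when any 1 control or KO replicate 2 was left out (highest adjusted p 0.117), nor Stard3nl without control replicate 1 or 2 (0.0716). Pctp and Stard7, which also carry phosphatidylcholine, had log2 fold changes of 0.02 and -0.14 and did not pass (edgeR adjusted p = 0.96 and 0.28).

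In the TRIM family, 6 of 36 tested rose and 0 fell in edgeR, where 12 were higher and 3 lower at an unadjusted p below 0.05. DESeq2 called 6 higher and 1 lower, and limma-voom 6 higher and 0 lower. The median log2 fold change was 0.13. The 3 with the smallest p were Trim12c, Trim34a and Trim21, genes known to be induced by interferon. Trim34a stood at 10.2 CPM ± 6.84 (SD, n = 2) in KO and 0.802 CPM ± 0.180 (SD, n = 3) in control (log2 fold change 3.61 ± 0.47, edgeR adjusted p = 0.0032). Leaving out KO replicate 1 made that fold change 2.68 on the log2 scale, and leaving out KO replicate 2 made it 4.19. Trim12c stood at 24.9 CPM ± 8.97 in KO and 7.70 CPM ± 0.767 in control (edgeR adjusted p = 0.0027), and Trim21, the cytosolic antibody receptor, at 36.6 CPM ± 20.1 in KO and 9.84 CPM ± 0.580 in control (edgeR adjusted p = 0.0065). Trim34a and Trim12c belong to a cluster of similar genes whose reads may be divided among copies. Trim21 missed the threshold without control replicate 2 (adjusted p = 0.0533), and its log2 fold change was 1.17 when KO replicate 1 was left out and 2.36 when KO replicate 2 was. The number that rose was 4, 3 and 5 without control replicates 1, 2 and 3.

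No other tested gene of the molybdenum cofactor pathway passed the test. Of 10 genes tested, 0 passed in either direction with edgeR, DESeq2 or limma-voom, and 2 were lower and 0 higher at an unadjusted p below 0.05 in edgeR. Mocs2 and Mocs3, for the next step and its sulfur supply, had log2 fold changes of -0.04 and 0.23, and Gphn, for gephyrin, which inserts molybdenum, one of -0.03. Marc2 and Suox, molybdenum enzymes, stood at 64.7 and 5.86 CPM in KO means and at 64.6 and 6.34 CPM in control means. Cyb5r3, for a cytochrome b5 reductase, was the most abundant of the list, at 339 CPM ± 9.37 (SD, n = 2) in KO and 397 CPM ± 24.6 (SD, n = 3) in control.

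Of 25 genes of Rab11 recycling and transferrin receptor trafficking, 2 rose and 1 fell, with a median log2 fold change of -0.01. Ehd1, for an ATPase of recycling endosomes, rose to 358 CPM ± 15.1 (SD, n = 2) in KO against 258 CPM ± 18.6 (SD, n = 3) in control (edgeR adjusted p = 0.012). Rab11fip3, for a Rab11 effector, rose to 7.21 CPM ± 0.524 in KO against 3.97 CPM ± 0.261 in control (edgeR adjusted p = 0.011). Steap3, the ferrireductase of erythroid endosomes, fell to 227 CPM ± 8.90 in KO against 290 CPM ± 23.6 in control (log2 fold change -0.35 ± 0.09, edgeR adjusted p = 0.043). Leaving out any 1 control left Ehd1 and Rab11fip3 short of the threshold, at up to 0.0618, and leaving out any 1 control or KO replicate 2 did so for Steap3, at up to 0.155. Rab11a and Rab11b, the GTPases themselves, had log2 fold changes of -0.01 and -0.07, and Sh3tc1, the paralog of Sh3tc2, stood at 3.45 CPM in KO and 3.27 CPM in control means.

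Trim2 and Sh3tc2 are both known as genes of Charcot-Marie-Tooth disease, an inherited neuropathy of humans. Of 29 other such genes tested, 3 rose, with a median log2 fold change of 0.19. Kif1b, for a kinesin motor, rose to 26.1 CPM ± 7.52 (SD, n = 2) in KO against 12.4 CPM ± 1.64 (SD, n = 3) in control (edgeR adjusted p = 0.010), and missed the threshold without control replicate 2 (0.068). Gnb4, a G protein subunit gene, and Ighmbp2, a helicase gene, rose too, with log2 fold changes of 0.75 ± 0.15 (edgeR adjusted p = 0.018) and 0.53 ± 0.13 (edgeR adjusted p = 0.040). Gnb4 did not pass when any 1 control was left out (highest adjusted p 0.0815), nor Ighmbp2 when any 1 control or KO replicate 2 was (0.187) or with DESeq2. At an unadjusted p below 0.05 in edgeR, 11 were higher and 0 lower. DESeq2 called 4 higher, limma-voom called 3 higher, and both called 0 lower.

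**Figure D5:**
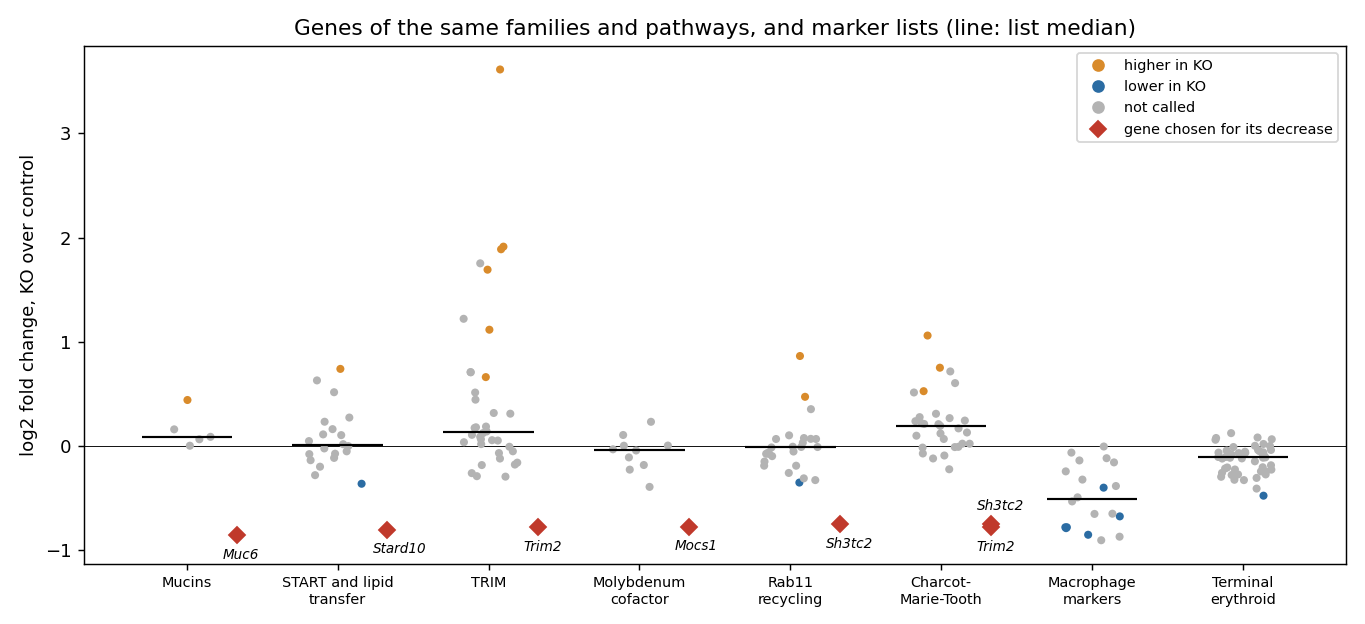
Log2 fold change, KO over control, of each tested gene in 8 of the lists, with the list median as a line; orange and blue points are called higher and lower in KO, and red diamonds are the 5 genes, drawn beside the lists of their families. The diamonds lie below all tested genes of the mucin, START, TRIM, molybdenum, Rab11 and Charcot-Marie-Tooth lists, while some macrophage markers reach as low. The 5 genes were chosen for their large decreases, so their place below these lists follows from the choice.

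Of 20 macrophage markers tested, 6 fell and 14 did not pass, with a median log2 fold change of -0.51 and no log2 fold change above 0. At an unadjusted p below 0.05 in edgeR, 15 were lower and 0 higher. Cd5l, a secreted protein of tissue macrophages, fell to 9.97 CPM ± 1.55 (SD, n = 2) in KO against 17.1 CPM ± 1.38 (SD, n = 3) in control (edgeR adjusted p = 0.012). Adgre1, which encodes F4/80, fell to 6.80 CPM ± 0.172 in KO against 10.9 CPM ± 0.328 in control (edgeR adjusted p = 0.016), and Marco, a scavenger receptor gene, to 4.76 CPM ± 0.225 in KO against 8.23 CPM ± 0.619 in control (edgeR adjusted p = 0.016). The summed level of the 22 listed genes was 320 and 287 CPM in the KO libraries and 376 to 411 CPM in the controls, and Vsig4 had no count. Csf1r and Cd68 had log2 fold changes of -0.24 and -0.06 and did not pass (edgeR adjusted p = 0.15 and 0.85). The number that fell was 2, 0 and 1 without control replicates 1, 2 and 3, and 8 and 3 without KO replicates 1 and 2. Cd5l, Adgre1 and Marco each missed the threshold without control replicate 2, Adgre1 and Marco also without either other control, and Marco without KO replicate 2; the highest adjusted p among these was 0.0733. The part of macrophage RNA in the decrease of the 5 genes was not tested.

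Of 48 terminal erythroid genes tested, 1 fell, with a median log2 fold change of -0.11, and 13 were lower and 0 higher at an unadjusted p below 0.05 in edgeR. DESeq2 called 6 lower and limma-voom 1. The summed level of the list was 138701 and 113036 CPM in KO replicates 1 and 2 and 127121 to 147440 CPM in the controls. Xpo7, a nuclear transport gene needed for the condensing of erythroid nuclei in mouse, fell to 1527 CPM ± 261 (SD, n = 2) in KO against 2125 CPM ± 77.9 (SD, n = 3) in control (log2 fold change -0.48 ± 0.12, edgeR adjusted p = 0.047). Xpo7 did not pass when any 1 control or KO replicate 2 was left out (highest adjusted p 0.174), nor under RLE scaling. Gata1, Klf1, Alas2 and Slc4a1 had log2 fold changes of -0.05, -0.21, -0.22 and -0.12 and did not pass (edgeR adjusted p of 0.23 to 0.76). Without KO replicate 1 the log2 fold changes of these 4 were -0.08, -0.22, -0.36 and -0.23. Without KO replicate 2 they were -0.05, -0.22, -0.11 and -0.04. Of 18 early and progenitor markers 0 passed in edgeR or limma-voom, while DESeq2 called 1 lower. At an unadjusted p below 0.05 in edgeR, 3 were lower and 1 higher. The most abundant, Zfpm1 and Lmo2, had log2 fold changes of -0.08 and -0.25.

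Of 19 biliary and gastric gland markers, 3 were tested, and the summed level was 5.07 and 7.00 CPM in KO replicates 1 and 2 and 4.85 to 6.31 CPM in the controls. Krt19, Pgc, Tff2, Gkn2, Gkn3, Muc5ac and Aqp5 had no count in any library, and Krt8 and Krt18 stood at 2.29 and 1.63 CPM in KO means and 2.05 and 1.31 CPM in control means. These 3 did not pass in edgeR, DESeq2 or limma-voom, with 0 at an unadjusted p below 0.05. Of 6 Schwann cell and neural markers tested, Gfap, an intermediate filament gene, fell to 51.7 CPM ± 5.78 (SD, n = 2) in KO against 78.8 CPM ± 1.41 (SD, n = 3) in control (edgeR adjusted p = 0.0046). Tubb3, for a neuronal tubulin, rose to 3.90 CPM ± 0.569 in KO against 1.26 CPM ± 0.150 in control (edgeR adjusted p = 0.0027). The summed level of these markers was 157 and 140 CPM in KO replicates 1 and 2 and 181 to 189 CPM in the controls. Mbp, the myelin basic protein gene, stood at 87.8 CPM in KO and 100.3 CPM in control means and did not pass (edgeR adjusted p = 0.15), and Cdh19, a Schwann cell precursor marker, had no count. The part of such cells in the decrease of the 5 genes was not tested.

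Hepatocyte markers, whose adult tissue expresses Stard10, summed to 310 and 364 CPM in KO replicates 1 and 2 and to 261 to 413 CPM in the controls. Of 17 tested, 0 passed in edgeR, DESeq2 or limma-voom and 0 had an unadjusted p below 0.05 in edgeR. Afp and Alb stood at 148 CPM ± 24.3 and 112 CPM ± 8.87 (SD, n = 2) in KO and at 139 CPM ± 29.7 and 115 CPM ± 29.3 (SD, n = 3) in control. Of 13 endothelial and stellate cell markers, the collagen genes Col1a1 and Col1a2 and the matrix gene Reln rose, with log2 fold changes of 2.05 ± 0.39, 1.11 ± 0.26 and 1.18 ± 0.26 (edgeR adjusted p = 0.016, 0.037 and 0.030). All 3 missed the threshold without any 1 control, Col1a2 also without KO replicate 2 and with limma-voom, and Reln with DESeq2 and limma-voom; the log2 fold changes of Col1a1 and Col1a2 were 1.11 and 0.55 without KO replicate 2, and that of Reln was 0.48 without KO replicate 1. Over all 13 the median log2 fold change was -0.04, and 2 were lower and 4 higher at an unadjusted p below 0.05 in edgeR. The summed level of the endothelial and stellate list was 197 and 199 CPM in KO replicates 1 and 2 and 148 to 169 CPM in the controls. Within these sums Reln stood at 67.8 CPM ± 36.1 (SD, n = 2) in KO and 29.9 CPM ± 1.51 (SD, n = 3) in control. Reln was higher in KO replicate 1, while Col1a1 and Col1a2 were higher in KO replicate 2. Of 16 megakaryocyte, granulocyte, mast cell and lymphoid markers, 0 passed in edgeR or limma-voom and DESeq2 called 1 higher. In edgeR, 2 were lower and 2 higher at an unadjusted p below 0.05. Mpo, for neutrophil myeloperoxidase, stood at 488 CPM ± 44.7 in KO and 473 CPM ± 83.5 in control, and Vwf, the von Willebrand factor gene, at 48.9 CPM ± 0.563 in KO and 41.3 CPM ± 1.89 in control.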

How the data were processed

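Polyadenylated RNA of TER119-sorted cells was read on an Ion Proton, per the labels' protocols. The submitters' processing notes name HTSeq, STAR, Bowtie and cutadapt with the mm10 build. They do not give versions, the strand setting or how reads with several positions were treated. The authors deposited whole-number counts per Ensembl gene, with no normalisation. Counts are reads, not molecules, and 1 CPM stood for 13.0 to 15.5 of them.

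Symbols, positions and exon lengths came from GENCODE M21 on GRCm38, which matched 37693 of 39179 identifiers. R 4.3.3 and edgeR 4.0.16 were used for the quasi-likelihood test of KO against control (functions glmQLFit, glmQLFTest), with TMM scaling (factors 0.970 to 1.03), group as the only term and filterByExpr, which kept 13000 genes. P-values were adjusted by Benjamini-Hochberg over these genes, with a threshold of 0.05. A standard error is the log2 fold change divided by the root of its F value. CPM used TMM-scaled totals. The fit was tested on simulated data, where it called 43.6% of changes of 0.5 on the log2 scale, 78.3% of changes of 1 and 97.0% of changes of 2. A listed gene that did not pass may thus still have a change of such a size.

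The members and the 14 gene lists were chosen with earlier results of these data known. The genes named were the 5 members, Csnk2b, 4 erythroid marks, the neighbours and overlapping genes of each member, the genes next to them in the order of decreases, the 3 nearest profiles per member and, per list, the 3 called genes of lowest p or the 2 most abundant where none passed. Some genes that this rule names are not reported here. Other family members, such as Pctp, Stard7 and Rab11b, were named after their values were seen. Promoters came from RefSeq, which matched 4 of the 5 members. Alternatives were RLE scaling, no scaling factor, no filter, at least 5 CPM in 2 libraries, DESeq2 1.42.0, limma-voom 3.58.1, the replicate number as a block and each library left out in turn.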

Additional observations from a re-analysis of the deposited data

How the results depend on the processing

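All 5 genes kept their direction under every alternative run, which follows from their choice as large decreases in these same libraries. In the main fit all 5 were among the genes called lower, but only 4 were without control replicate 1 and only 4 without control replicate 2. Outside the fits that left out a library, log2 fold changes stayed within -0.87 to -0.82 for Muc6, -0.83 to -0.78 for Stard10, -0.85 to -0.76 for Trim2, -0.78 to -0.74 for Mocs1 and -0.76 to -0.73 for Sh3tc2. With 1 library left out, they ranged from -1.04 to -0.71, -0.89 to -0.75, -0.90 to -0.69, -0.90 to -0.68 and -0.89 to -0.65 for the same genes, and the largest decreases were without KO replicate 1. A fit without a KO library leaves 1 KO sample, assumed to vary like the controls.

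The number of genes lower in KO, 238, was 53 with no filter and 31 to 1247 with 1 library left out, and the number higher, 669, was 235 with no filter and 210 to 1709. Of the listed genes, 10 were lower and 17 higher; with no filter 4 were lower and 5 higher, and C1qc, Slc40a1, Trim25, Trim6 and Trim12a were among the calls lost; with DESeq2 17 were lower, with 1 library left out 1 to 42 were lower and 4 to 35 higher. With no filter more genes share the adjustment; the cause of the other moves was not tested. Deviations of same-numbered libraries from their group means correlated across genes at 0.0016 and 0.042. The deviations of the 2 KO libraries mirror each other, so this check cannot decide whether replicate numbers pair the samples. With the replicate number as a block, 171 genes were lower and 702 higher, 6 and 19 of them on the lists, and the log2 fold changes were -0.82 for Muc6, -0.83 for Stard10, -0.85 for Trim2, -0.74 for Mocs1 and -0.74 for Sh3tc2. Replicate 3 was a control only, so in that fit the KO effect rested on replicates 1 and 2. Among the listed genes called, the block ended the call of C1qc, Xpo7, Pitpnc1, Steap3, Ighmbp2 and Trim6. Depth limits Trim2 most, which had 159 counts in its smallest library. For the other tested genes picked out by the naming rule or the text, 603 of their values under an alternative kept their side of the threshold, 78 fell short of it, 8 newly passed it and none changed direction with a call.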
